A study of Mus musculus with 12 samples.

Results

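The transcripts described here encode 8 proteins by which a leukemia cell can be seen by natural killer (NK) cells. They are the NKG2D ligands Raet1d, Raet1e and Ulbp1, the lectin Clec2d, the SLAM family protein Cd48, the nectin family proteins Pvr and Nectin2, and the adhesion molecule Icam1. The genes were chosen by name from what their products bind, with earlier results of these data known. All 8 were found by symbol among the 55401 genes measured. Each averaged more than 1 TPM (transcript abundance per length, on a total of 1000000 in each library), so all 8 entered the comparisons.

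RNA-seq was made from GFP+ MLL-AF9 cells of the bone marrow of moribund female mice, 4 libraries from each of 3 hosts, 12 in all. The MLL-AF9 cells are mouse bone marrow progenitors transformed with a retrovirus that carries the MLL-AF9 fusion together with GFP, and they had been passed through more than 10 serial transplantations, so every library comes from 1 line. The hosts were WT (C57BL/6) mice with a full immune system, Rag2-/- (C57BL/6J-Rag2em3Lutzy/J) mice, which lack mature T and B cells and keep NK cells, and NSG mice, which lack T, B and NK cells. Recipients were 8 to 12 weeks old, and RNA came from 3.0 × 1000000 cells. NSG mice differ from the other hosts in strain background as well as in immune cells, and these differences cannot be told apart. In units of 1000000, the libraries held 16.0 to 42.8 reads assigned to genes, as recovered from the TPM. TPM are levels of RNA. The surface staining of Qa-1b, Rae1 (the products of the Raet1 genes) and Mult1 (the product of Ulbp1) in the study was not analysed here.

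NK cells weigh activating against inhibitory signals from the cell they touch. NKG2D is an activating receptor for the stress-induced Raet1, H60 and Ulbp1 proteins. DNAM-1 activates on binding Pvr and Nectin2, which the inhibitory receptor TIGIT also binds. Clec2d, also called Clr-b, engages an inhibitory NKR-P1 receptor, Cd48 binds 2B4 and CD2, and Icam1 binds the integrin LFA-1, which holds the NK cell to its target.

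The sequences of Raet1d and Raet1e come first because they set what a read can tell about these genes. Both lie on the plus strand of chromosome 10 in GRCm38 (the same assembly as mm10), Raet1d at chr10:22360552-22374139 and Raet1e at chr10:22158569-22374139. Their coding sequences were 95.8% identical, with 713 of 744 aligned bases the same. The first 120 coding bases differed at 1 position, in capitals, which is A87G when counted from the first base of the Raet1d start codon. In Raet1d this stretch spans the first coding exon (chr10:22362715-22362805) and the start of the second (chr10:22370866-22370894), and in Raet1e the matching exons (chr10:22174320-22174410 and chr10:22180618-22180646).
Raet1d: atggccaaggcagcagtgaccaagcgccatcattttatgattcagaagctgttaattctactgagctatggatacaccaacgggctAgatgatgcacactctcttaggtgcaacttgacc
Raet1e: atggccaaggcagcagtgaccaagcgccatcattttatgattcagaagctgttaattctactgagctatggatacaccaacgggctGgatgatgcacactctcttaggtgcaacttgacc

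The stretch of 60 coding bases without a gap that told the genes apart best held 10 differences, again in capitals. It lies in the third coding exon, at chr10:22371537-22371596 in Raet1d and at chr10:22181295-22181354 in Raet1e.
Raet1d: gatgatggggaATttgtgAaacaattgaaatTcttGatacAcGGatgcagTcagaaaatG
Raet1e: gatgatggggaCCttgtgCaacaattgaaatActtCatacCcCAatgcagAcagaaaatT

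Of the 50-base words in the annotated Raet1d transcripts, 55.8% also occurred in Raet1e. Of the words in Raet1e, 44.7% occurred in another gene, 40.3% in Raet1d. The annotated exons of the pair also overlap in place, with 25.2% of the Raet1d exon bases inside Raet1e exons on the same strand. How reads that match more than 1 gene were counted is not given in the sources used here, so the split between Raet1d and Raet1e is uncertain. Their levels and their sum are uncertain too, since both would be lower if such reads were left out. The other members were nearly free of this. The shared words came to 2.27% for Icam1, 1.98% for Clec2d, 1.76% for Ulbp1 and 0% for Cd48, Pvr and Nectin2. Exons of Icam1 overlapped a gene on the opposite strand over 11.7% of their bases and those of Nectin2 over 3.86%, and whether the counting used strand is not given in the sources used here.

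**Figure D1:**
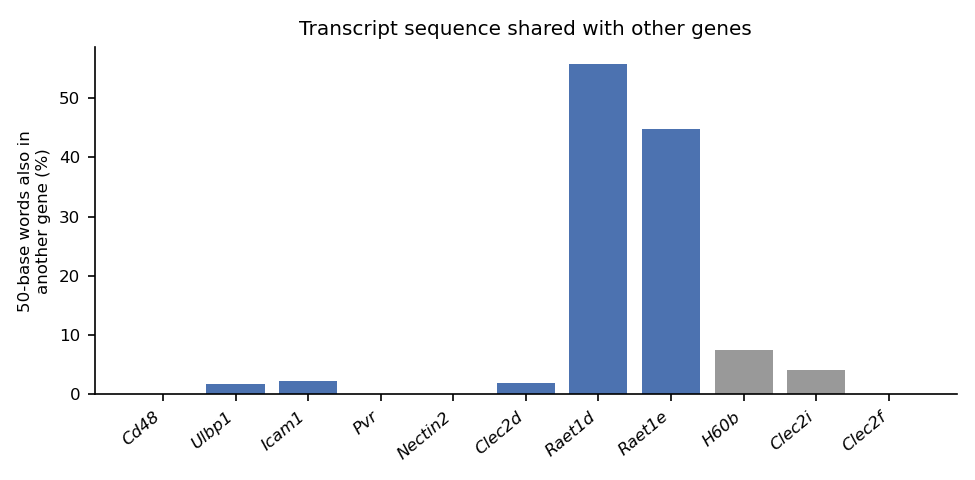
Percent of the 50-base words in the annotated transcripts of each gene that also occur in another gene (GENCODE M21, GRCm38), for the 8 ligand genes in blue and 3 related genes in gray. Raet1d at 55.8% and Raet1e at 44.7% stand above all others shown.

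The ligand transcripts spanned a wide range of levels in MLL-AF9 cells. Cd48 was highest, with a mean of 178 TPM over the 12 libraries, above 93.5% of the 15026 genes tested. Ulbp1 followed with 66.6 TPM, above 79.4% of the genes. Icam1 (30.9 TPM), Pvr (30.0 TPM), Nectin2 (29.4 TPM) and Clec2d (26.2 TPM) formed a middle group, and Raet1d (3.24 TPM) and Raet1e (1.88 TPM) were lowest, Raet1e being above only 10.9% of the genes.

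Cd48 exceeded Ulbp1, and Ulbp1 exceeded Icam1, in 12 of 12 libraries without overlap of their ranges. Within the middle group the order was not fixed. Icam1 was above Pvr in 7 of 12 libraries, Pvr above Nectin2 in 8 and Nectin2 above Clec2d in 7, and the ranges of neighbors overlapped. Clec2d was above Raet1d in all 12, whereas Raet1d was above Raet1e in 10 of 12 with overlapping ranges.

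**Figure D2:**
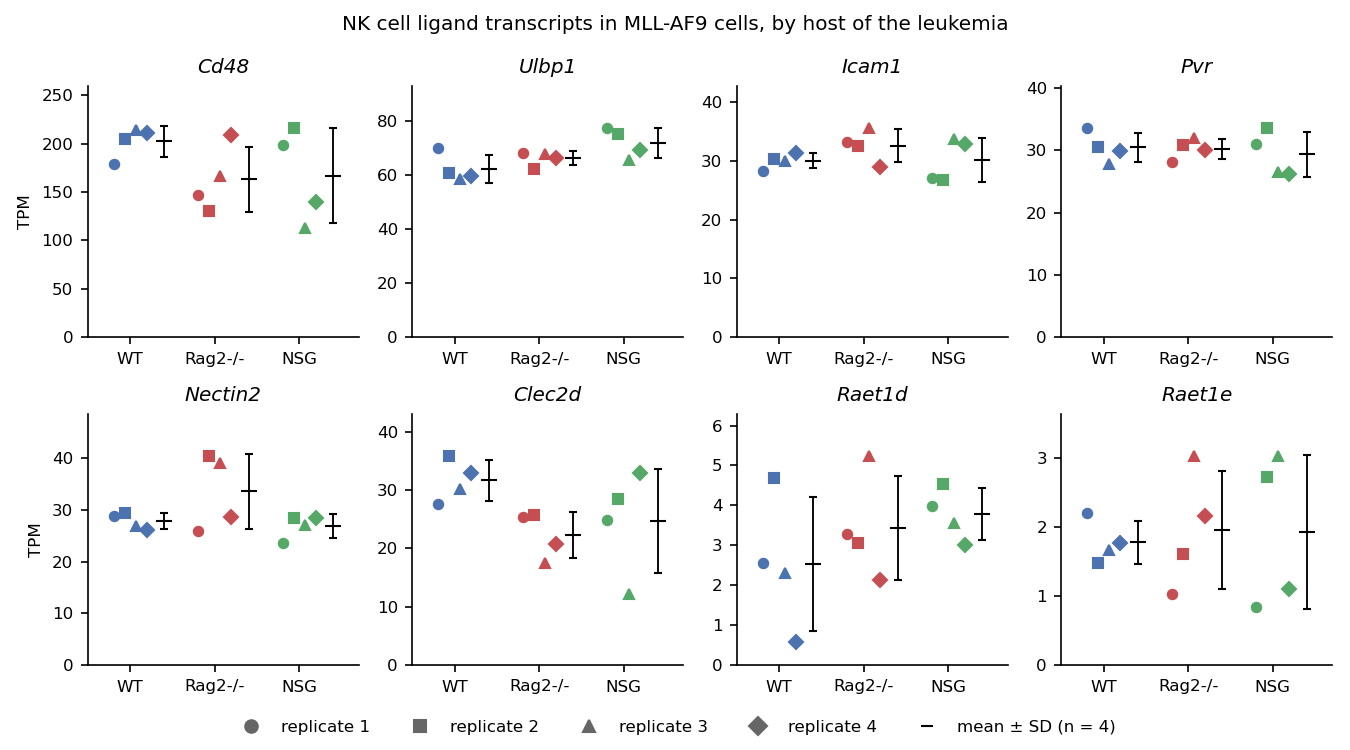
TPM of the 8 NK cell ligand genes in each library, by host, with a marker for each replicate number and the mean ± SD of 4 libraries in black. Each panel starts at 0. Clec2d in Rag2-/- and WT libraries is the only case among the 24 comparisons of hosts in which the libraries do not overlap.

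None of the 8 genes passed the test in any comparison of hosts. The 3 hosts were fitted together with limma on log2(TPM + 1), and a gene counted as called where its Benjamini-Hochberg adjusted p was under 0.05 and its log2 fold change exceeded 0.5 in either direction. For Rag2-/- against WT mice, 0 of 8 members were called, while 1.47% of all genes were, and 0 had an unadjusted p below 0.05. For Rag2-/- against NSG mice, 0 of 8 were called, while 0.213% of all genes were, and 1, Nectin2, had an unadjusted p below 0.05. For NSG against WT mice, 0 of 8 were called and 0% of all genes were, and 1, Ulbp1, had an unadjusted p below 0.05. Of all 15026 genes tested, 3146, 1888 and 1377 had an unadjusted p below 0.05 in these comparisons, in this order. The libraries of the hosts did not overlap for 1 of 8 members (Clec2d) in the first comparison, against 16.9% of all genes, and for 0 of 8 in the second and in the third, against 6.59% and 4.59%. Voom, run on reads recovered from the TPM, called 0 of 8 in each comparison. With so few genes called among all those tested, 0 of 8 does not set these genes apart from the others. The median log2 fold change of the members was 0.07 for Rag2-/- against WT (0.02 over all genes tested), 0.02 for Rag2-/- against NSG (0.01) and −0.03 for NSG against WT (0.00). The comparisons share libraries, so their values are given side by side.

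**Figure D3:**
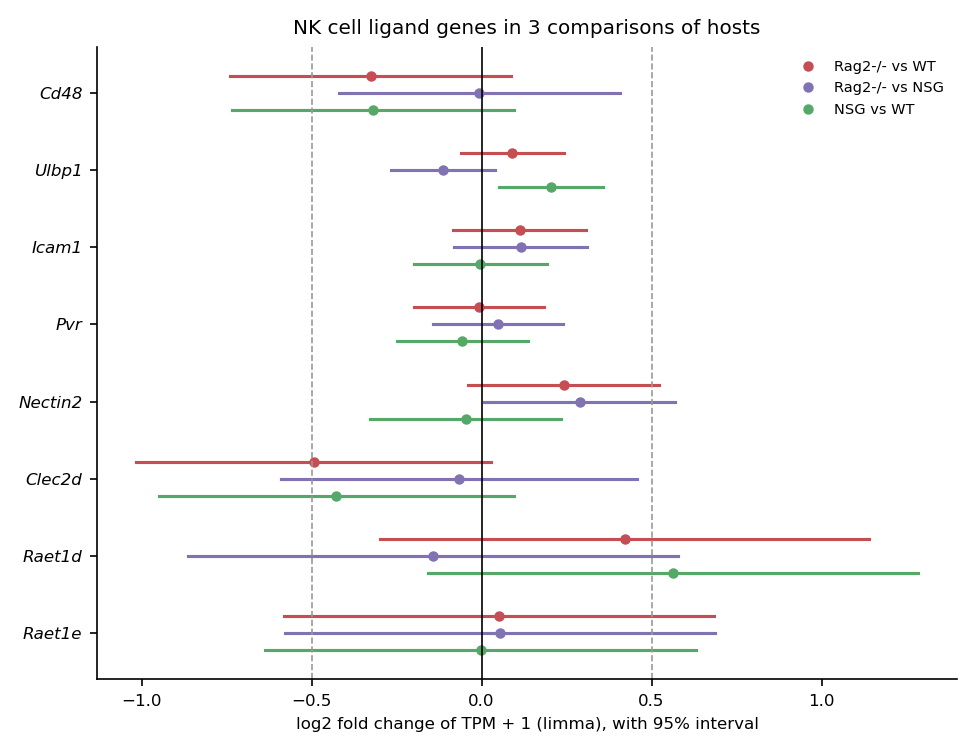
Log2 fold change of TPM + 1 from limma (points) with its 95% interval (lines) for the 8 genes in 3 comparisons of hosts, and dashed lines at the limit of 0.5 in either direction. The intervals of Pvr, Icam1 and Ulbp1 lie inside the limits, and those of Raet1d are the widest.

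Ulbp1 encodes Mult1, a high-affinity ligand of NKG2D. It lies on the minus strand at chr10:7440362-7473638. In cells from WT mice it stood at 69.8, 60.5, 58.5 and 59.5 TPM, in cells from Rag2-/- mice at 68.1, 62.3, 67.6 and 66.2 TPM, and in cells from NSG mice at 77.3, 75.0, 65.3 and 69.0 TPM. WT replicate 1 lay above all 4 Rag2-/- libraries and the other 3 WT libraries lay below them, and the highest values were in NSG replicates 1 and 2, so the groups overlapped. Ulbp1 had a log2 fold change of 0.09 between Rag2-/- and WT (SE 0.07, 95% interval −0.06 to 0.24, limma adjusted p = 0.498) and 0.20 between NSG and WT (SE 0.07, 95% interval 0.05 to 0.36, adjusted p = 0.451). A change of Ulbp1 by more than 0.36 on this scale lies outside the intervals of both comparisons.

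Raet1d was low and uneven. It stood at 2.54, 4.68, 2.31 and 0.587 TPM in WT libraries, at 3.27, 3.05, 5.25 and 2.14 TPM in Rag2-/- libraries and at 3.99, 4.53, 3.55 and 3.00 TPM in NSG libraries. These levels rest on few reads, between 4 in WT replicate 4 and 47 in Rag2-/- replicate 1, as recovered from the TPM and the exon lengths. WT replicate 4 was the lowest of the 12 libraries and the other WT libraries fell among those of the other hosts. For Raet1d it was 0.42 between Rag2-/- and WT on the log2 fold scale (SE 0.33, 95% interval −0.30 to 1.14, limma adjusted p = 0.507) and 0.56 between NSG and WT (SE 0.33, 95% interval −0.16 to 1.28, adjusted p = 0.624). Without WT replicate 4 these became 0.08 and 0.23. At this depth the intervals leave room for changes of up to 1.14 and 1.28 on the log2 scale.

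Raet1e gave 2.20, 1.47, 1.66 and 1.76 TPM in WT libraries, 1.02, 1.60, 3.03 and 2.16 TPM in Rag2-/- libraries and 0.833, 2.72, 3.03 and 1.097 TPM in NSG libraries, from 10 to 56 reads. All WT libraries lay within the range of each other host. Its log2 fold changes were 0.05 (95% interval −0.58 to 0.68), 0.05 (−0.58 to 0.69) and 0.00 (−0.64 to 0.63) for Rag2-/- against WT, Rag2-/- against NSG and NSG against WT, with limma adjusted p from 0.941 to 0.999. The summed TPM of both Raet1 genes ranged from 2.35 to 6.15 TPM in WT, from 4.29 to 8.27 TPM in Rag2-/- and from 4.10 to 7.25 TPM in NSG libraries, so the hosts overlapped here too. Summed as reads, the pair had 22 to 54 in WT, 50 to 93 in Rag2-/- and 42 to 74 in NSG libraries, which differ in depth.

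The NKG2D ligand list held 9 genes, of which 5 were found in the file and 4 (Raet1a, Raet1b, Raet1c and H60a) had no match in the annotation and were not analysed here. H60b, another NKG2D ligand, ranged from 2.54 to 8.25 TPM and was not called, with limma adjusted p from 0.574 to 0.955. H60c was listed at 0 in all 12 libraries. Ulbp1 made up 80.3% to 90.7% of the summed TPM of the 5 NKG2D ligands found in every library, so 1 gene held most of their TPM in each host. The uncertain levels of Raet1d and Raet1e bear on this share. The sum itself was 70.0 ± 4.93 TPM in WT, 76.9 ± 4.92 TPM in Rag2-/- and 81.3 ± 4.58 TPM in NSG libraries (mean ± SD, n = 4).

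Clec2d had the log2 fold change of largest size of a member between Rag2-/- and WT mice, without being called, and a wide spread in NSG hosts. This ranking depends on the fit, as Raet1d reached 0.70 without WT replicate 2. Clec2d lies on the plus strand at chr6:129180615-129186534. Its levels were 27.7, 35.9, 30.2 and 32.9 TPM in WT libraries, 25.4, 25.8, 17.5 and 20.8 TPM in Rag2-/- libraries and 24.9, 28.5, 12.2 and 33.0 TPM in NSG libraries. All 4 Rag2-/- libraries lay below all 4 WT libraries, the only such case among the members in any comparison, while 6.72% of all genes had libraries parted in this direction. NSG libraries covered both. Its log2 fold change between Rag2-/- and WT was −0.49 (SE 0.24, 95% interval −1.02 to 0.03, limma adjusted p = 0.266), and with the 8 libraries of these hosts fitted alone the adjusted p was 0.0524. Between NSG and WT it was −0.43 (SE 0.24, 95% interval −0.95 to 0.10, adjusted p = 0.608), and without NSG replicate 3 it was −0.14.

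Clec2i and Clec2f, relatives of Clec2d, were more abundant than Clec2d itself. Clec2i, which encodes the lectin Clr-g, ranged from 82.2 to 114 TPM. Clec2f, annotated as a transcribed pseudogene, ranged from 74.9 to 108 TPM and was named after its values were seen. The coding sequence of Clec2i was 88.3% identical to that of Clec2d over the aligned bases, but only 4.10% of its 50-base words occurred in another gene. Clec2i had a mean of 89.2 ± 5.61 TPM in WT, 101 ± 9.11 TPM in Rag2-/- and 102 ± 6.35 TPM in NSG libraries (SD, n = 4), and it was not called in any comparison. The remaining Clec2 genes stood at or near 0.

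Cd48 was the most abundant member and, like Clec2d, had its highest mean in WT hosts. It lies on the plus strand at chr1:171682009-171705258. WT libraries held 179, 205, 214 and 211 TPM, Rag2-/- libraries 147, 131, 167 and 209 TPM, and NSG libraries 199, 216, 113 and 140.0 TPM. Rag2-/- replicate 4 stood within the WT range and the other Rag2-/- libraries below it, and NSG libraries fell on both sides. Cd48 had a log2 fold change of −0.33 between Rag2-/- and WT (SE 0.19, 95% interval −0.74 to 0.09, limma adjusted p = 0.355). Between NSG and WT the value was −0.32 (SE 0.19, 95% interval −0.73 to 0.09, adjusted p = 0.632), and it fell to −0.15 without NSG replicate 3. Compared with NSG, Rag2-/- libraries gave −0.01 (95% interval −0.42 to 0.41).

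The receptor 2B4, which binds Cd48, was itself transcribed in the leukemia libraries, with Cd244a at 45.0 to 58.4 TPM. Of the 9 SLAM family genes listed, 6 passed the filter on low values, including the self-ligand Ly9 at 48.0 to 67.2 TPM, and 0 were called in any comparison. Cd244a and Ly9 were chosen after their values were seen.

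Nectin2 had its highest values in 2 of the Rag2-/- libraries and was not called. It lies on the minus strand at chr7:19716644-19750483, close to Pvr at chr7:19903578-19921160, also on the minus strand. Nectin2 stood at 28.7, 29.3, 26.9 and 26.0 TPM in WT, at 26.0, 40.5, 39.1 and 28.6 TPM in Rag2-/- and at 23.6, 28.5, 27.1 and 28.3 TPM in NSG libraries. Replicates 2 and 3 of Rag2-/- lay above every other library, and replicate 4 lay within the range of WT libraries and replicate 1 just under it. In Rag2-/- libraries its log2 fold change was 0.24 against WT (SE 0.13, 95% interval −0.04 to 0.52, limma adjusted p = 0.311) and 0.29 against NSG (SE 0.13, 95% interval 0.01 to 0.57, adjusted p = 0.3798). Without Rag2-/- replicate 2 these were 0.15 and 0.19.

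Pvr showed nearly equal levels in the 3 hosts. It stood at 33.5, 30.5, 27.8 and 30.0 TPM in WT, at 28.2, 30.8, 32.0 and 30.0 TPM in Rag2-/- and at 31.1, 33.6, 26.6 and 26.2 TPM in NSG libraries, with all groups overlapping. Its log2 fold changes were −0.01 (95% interval −0.20 to 0.18), 0.05 (−0.14 to 0.24) and −0.06 (−0.25 to 0.14) for Rag2-/- against WT, Rag2-/- against NSG and NSG against WT, so a change beyond 0.25 in either direction lies outside all 3 intervals. Of the 6 nectin and nectin-like genes listed, Nectin4 (2.24 to 4.78 TPM) was the only other one to pass the filter and is named for that, after its values were seen, and 0 were called.

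Icam1 was steady as well. The gene lies on the plus strand at chr9:21015985-21028817. Its levels were 28.3, 30.4, 30.0 and 31.4 TPM in WT, 33.2, 32.6, 35.6 and 29.0 TPM in Rag2-/- and 27.0, 26.7, 33.8 and 32.9 TPM in NSG libraries. Of the Rag2-/- libraries 3 lay above all WT libraries and replicate 4 lay among them. The log2 fold change of Icam1 was 0.11 between Rag2-/- and WT (SE 0.09, 95% interval −0.08 to 0.31, limma adjusted p = 0.517).

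Icam2, another ligand of LFA-1 and the most abundant gene of that list, differed more between Rag2-/- and WT mice than Icam1. It stood at 79.4, 92.0, 86.7 and 87.9 TPM in WT, at 60.6, 65.2, 56.3 and 66.8 TPM in Rag2-/- and at 68.6, 78.9, 54.6 and 82.6 TPM in NSG libraries. All Rag2-/- libraries lay below all WT libraries, as was so for 6.72% of all genes. The log2 fold change of −0.47 (SE 0.11, 95% interval −0.71 to −0.23, limma adjusted p = 0.0457) passed the limit on the adjusted p but not that on the fold change, so Icam2 was not called.

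The 8 lists of NK cell recognition genes held 52 genes, of which 48 were in the file, 6 of them listed at 0 in every library, and 31 passed the filter, the 8 members included. Of these 31, 0 were called between Rag2-/- and WT mice (8 with an unadjusted p below 0.05), 0 between Rag2-/- and NSG mice (5) and 0 between NSG and WT mice (5). Of all 15026 genes tested, 3146, 1888 and 1377 had an unadjusted p below 0.05 in the same order. Voom called 1, Ceacam1, between Rag2-/- and WT mice, where it called 284 of all 15001 genes, and 0 in the other comparisons. The median log2 fold change of the 31 genes was 0.08, 0.03 and −0.03 in that order, against 0.02, 0.01 and 0.00 over all genes tested. The Rag2-/- and WT libraries did not overlap for 3 genes that were higher (Cd274, Ceacam1 and Il15ra) and 2 that were lower (Clec2d and Icam2), named for this after their values were seen, while 10.2% of all genes were parted in the upward and 6.72% in the downward direction.

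Besides Icam2, which was lower in Rag2-/- mice, the genes nearest to the limits were Fas and Ceacam1, chosen after their values were seen. Fas, the death receptor that binds Fas ligand of NK cells, stood at 18.4, 14.3, 15.4 and 15.3 TPM in WT and at 17.7, 29.1, 26.8 and 22.5 TPM in Rag2-/- libraries. Replicate 1 of Rag2-/- overlapped WT and the other Rag2-/- libraries lay above. The log2 fold change of Fas was 0.55 (SE 0.14, 95% interval 0.26 to 0.85, limma adjusted p = 0.0506). Ceacam1, which encodes an inhibitory adhesion molecule that binds itself on NK cells, stood at 45.6, 38.1, 45.9 and 48.3 TPM in WT and at 59.3, 70.0, 77.0 and 55.5 TPM in Rag2-/- libraries, without overlap. The log2 fold change of Ceacam1 was 0.54 (SE 0.14, 95% interval 0.23 to 0.85, adjusted p = 0.0604).

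Other leading genes of the lists were abundant and were not called. The highest of each remaining list were Lgals9, a ligand of the receptor TIM-3 (456 to 581 TPM), Tnfrsf1a, a receptor for TNF (251 to 315 TPM), and Ctsb, a lysosomal protease (159.5 to 210.0 TPM). Between Rag2-/- and NSG mice, Ctsb and Tnfrsf1a were higher in all 4 Rag2-/- libraries, with log2 fold changes of 0.26 (limma adjusted p = 0.0976) and 0.17 (adjusted p = 0.267), and 4.34% of all genes were parted upward. H2-T23, which encodes Qa-1b, a ligand of the inhibitory receptor NKG2A, stood at 129.6 to 150.1 TPM in WT, 101 to 123 TPM in Rag2-/- and 103 to 139.7 TPM in NSG libraries. Its log2 fold change between Rag2-/- and WT was −0.30 (SE 0.09, 95% interval −0.50 to −0.10, limma adjusted p = 0.0926). The libraries did not overlap, and 6.72% of all genes were parted in this direction.

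**Figure D4:**
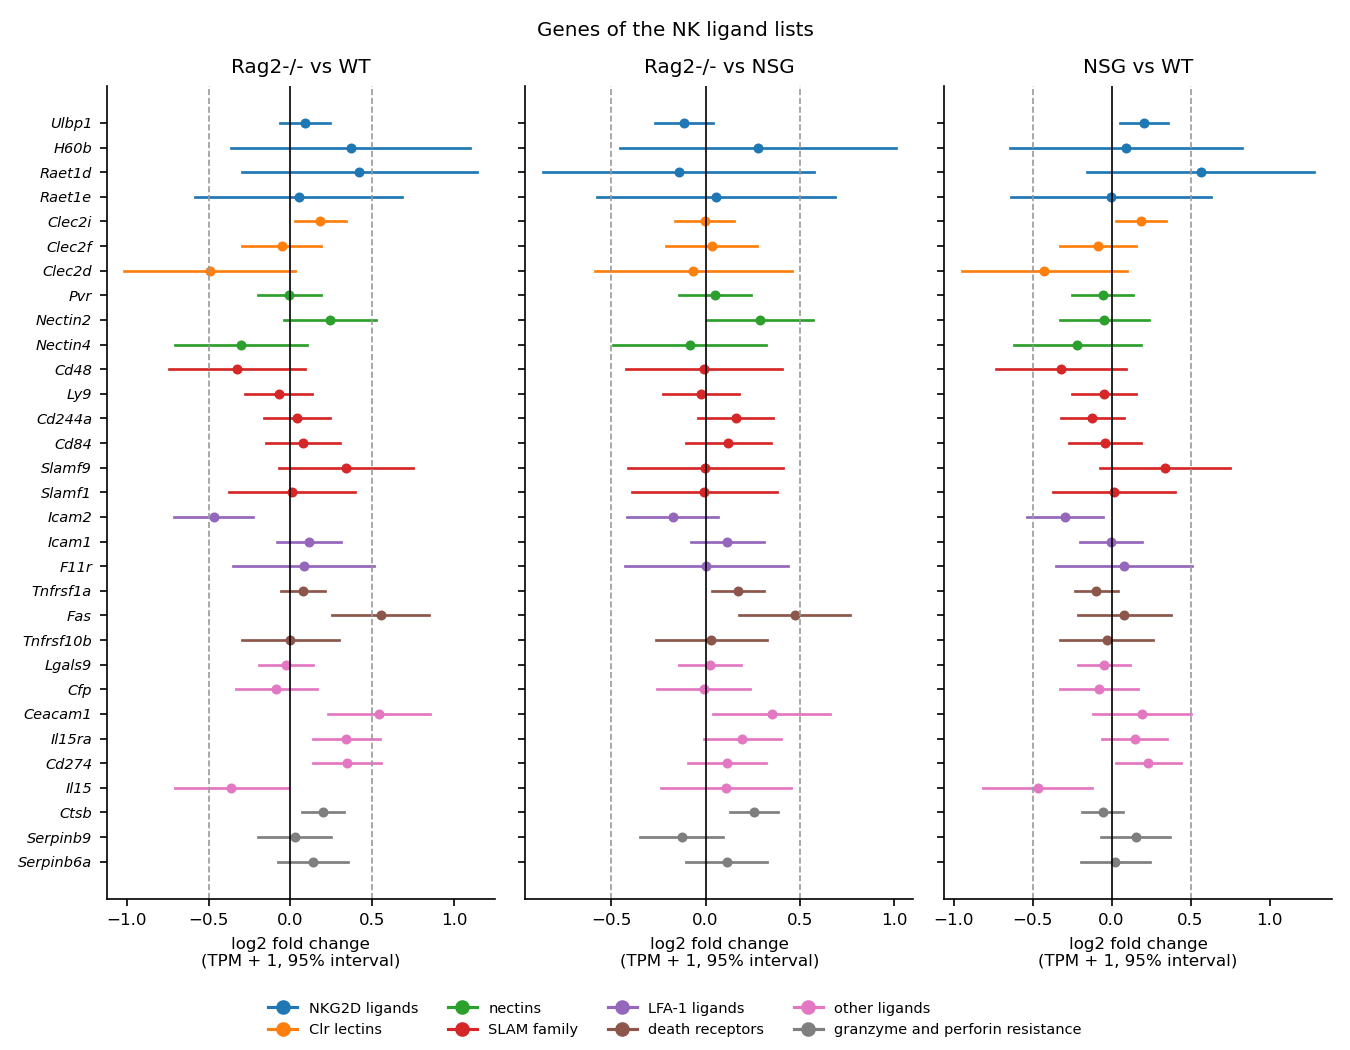
Log2 fold change of TPM + 1 (points) with 95% interval (lines) for the 31 genes of the NK cell recognition lists that passed the filter, in 3 comparisons of hosts, colored by list, with dashed lines at 0.5 in either direction. Between Rag2-/- and WT mice only the point estimates of Fas (0.55) and Ceacam1 (0.54) lie outside the dashed lines, and neither gene passed the adjusted p.

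The spread between leukemias of 1 host differed among the members. In NSG libraries the coefficient of variation was 36.2% for Clec2d and 29.2% for Cd48, against a median of 10.5% over the 9437 genes that averaged 10 TPM or more. In WT libraries the same genes varied by 11.2% and 7.76%, against a median of 6.81%. NSG replicate 3 held the lowest NSG value of Clec2d, Cd48, Ulbp1 and Icam2, and the highest of Icam1. In Rag2-/- libraries Nectin2 (21.8%) and Cd48 (20.6%) varied most among the members above 10 TPM, against a median of 7.40%.

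The genes whose profile over the 12 libraries was closest to a member, by Pearson correlation of log2(TPM + 1) among genes that averaged 10 TPM or more, were found for each as a description. The points are libraries that share a fit and their depth, and no p is given. For Clec2d they were Bphl (r = 0.97) and Zfp664 (r = 0.95), for Cd48 Adgrl4 and Pak1 (both r = 0.92), for Ulbp1 Ccdc77 and Smim8 (both r = 0.91), and for Nectin2 Osgin1 (r = 0.92) and Ehd1 (r = 0.89). For Pvr they were Ppfia1 (r = 0.92) and Inpp5e (r = 0.88), for Icam1 Tpst2 (r = 0.91) and Slc25a15 (r = 0.90), for Raet1d Nupl2 (r = 0.94) and Kif3a (r = 0.88), and for Raet1e Gm7285 (r = 0.91) and Vdac2 (r = 0.85). No member was among the closest genes of another.

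Markers of cell types were measured in the same libraries, since blood cells of other types also express ligand genes such as Cd48 and Icam1. Of the 7 leukemia and myeloid progenitor markers, Hoxa9 stood at 192 to 234 TPM and Meis1 at 54.2 to 63.3 TPM over the 12 libraries. Of this list, 2 were called between Rag2-/- and WT mice, while 1.47% of all genes were. Mpo, a granule enzyme of myeloid progenitors, was lower in Rag2-/- mice, with 145 ± 97.0 TPM against 553 ± 38.1 TPM in WT and 442 ± 203 TPM in NSG libraries (mean ± SD, n = 4). Cd33, a myeloid surface lectin, was higher, with 801 ± 92.2 TPM against 531 ± 50.2 TPM in WT and 618 ± 102 TPM in NSG libraries. The list's summed level was 1543 to 1752 TPM in WT, 1392 to 1744 TPM in Rag2-/- and 1544 to 1829 TPM in NSG libraries. The 9 NK cell markers summed to 5.58 to 7.87 TPM in WT, 4.36 to 10.3 TPM in Rag2-/- and 1.69 to 8.24 TPM in NSG libraries, of which Nkg7 alone held 1.16 to 7.43 TPM. Ncr1, which encodes the NK cell receptor NKp46, was listed at 0 in all WT and NSG libraries and at 0.391, 0.408, 0.531 and 0.108 TPM in Rag2-/- libraries, which is 2 to 6 reads. Gzma, a granzyme, was listed at 0 in all WT libraries and in 3 of 4 NSG libraries, at 1.67 TPM in NSG replicate 2 and at 2.39, 0.624, 1.62 and 1.32 TPM in Rag2-/- libraries. Cd3e and Ms4a1, which mark T and B cells, were listed at 0 in all 12, but other genes of their lists were not. The 5 B cell markers summed to 4.20 to 9.07 TPM in WT, 2.42 to 5.43 TPM in Rag2-/- and 3.55 to 8.62 TPM in NSG libraries. Of these, Cd79b held 1.74 to 6.52 TPM and Cd79a 0.421 to 3.09 TPM. The 5 T cell markers summed to 0.0983 to 0.740, 0.0863 to 0.694 and 0.374 to 0.961 TPM in the same order. Apart from Nkg7 and Gzma, which reached 7.43 and 2.39 TPM, each NK cell marker stayed under 2 TPM.

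Neutrophil markers moved with the Rag2-/- host. The 7 genes summed to 68.4 to 110.5 TPM in WT, 399 to 1702 TPM in Rag2-/- and 92.8 to 139.8 TPM in NSG libraries. Of them, 7 of 7 were called higher in Rag2-/- than in WT and than in NSG libraries, against 1.14% and 0.193% of all genes. Rag2-/- replicate 4 was the lowest of its group in this sum. The 6 macrophage markers summed to 89.9 to 97.4 TPM in WT, 99.5 to 114 TPM in Rag2-/- and 55.2 to 112 TPM in NSG libraries. Of these 6, 1 was called higher between Rag2-/- and WT mice, against 1.14% of all genes. In RNA from pooled cells, fewer cells of a type and less RNA per cell cannot be told apart. Marker RNA of other cells and marker RNA made by the leukemia cells themselves cannot be told apart either. The part of other cells and of the difference in progenitor markers in the levels of Cd48, Clec2d, Nectin2, Icam2 and Fas was not tested.

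**Figure D5:**
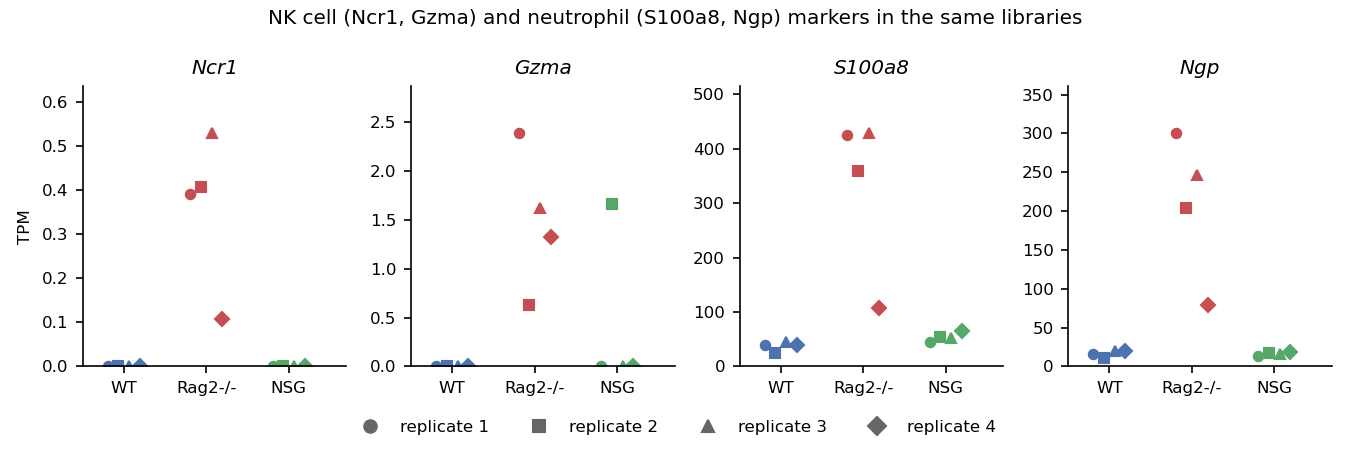
TPM of the NK cell markers Ncr1 and Gzma and of the neutrophil markers S100a8 and Ngp in each library, by host, with a marker for each replicate number and each panel starting at 0. Ncr1 is above 0 in Rag2-/- libraries alone, at up to 0.531 TPM, while S100a8 reaches 429 TPM and Ngp 301 TPM in these libraries. The NK cell marker Nkg7, not drawn, had its lowest mean in Rag2-/- libraries.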

How the data were processed

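The authors aligned paired-end reads from poly-T selected mRNA to mm10 with HISAT2 on Galaxy, obtained raw gene counts and calculated the TPM they deposited. The counting tool, annotation and gene lengths are not given in the sources used here. Symbols and exons were taken from GENCODE M21 (GRCm38), which matched 55141 of 55401 genes.

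TPM were transformed to log2(TPM + 1). The 15026 genes that averaged 1 TPM or more were fitted over all 12 libraries with limma 3.58.1 in R 4.3.3 (eBayes with a trend, no covariate) with Benjamini-Hochberg adjustment within a comparison. The pseudocount makes fold changes of low genes smaller. Multiplying TPM by exon length gave reads: 98.5% of values above 0 lay within 0.1 of a whole number. Between 65.7% and 68.8% of the values under 20 reads were even. The 2 mates of a pair may therefore have been counted one by one, which was not tested. The reads given here, also those used for voom, may then exceed the number of fragments. In units of 1000000 reads, depth was 16.0 to 27.1 in WT, 17.4 to 42.8 in Rag2-/- and 19.0 to 33.1 in NSG libraries. Transcript words of 50 bases and coding sequences were compared with Python 3.11.15 and Biopython 1.88. The scripts for the fit were tested on simulated data.

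The members and lists were chosen with earlier results of these data known. Genes named were the members, called genes of the lists, the most abundant gene of each list, every NKG2D ligand, H2-T23 and the 2 closest genes by correlation, besides genes of the cell type marker lists, and any other gene of the lists is said to be chosen after its values were seen. Alternatives were a pseudocount of 0.1, other filters on low values, quantile and median ratio scaling, eBayes without a trend, no fold limit, the 8 libraries of a comparison alone, voom on the recovered reads, a replicate block and each library left out. Protein sequences and surface staining were not used here.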

Additional observations from a re-analysis of the deposited data

How the results depend on the processing

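Of the 8 members, 0 were called in each comparison under all 23 alternatives, and the lowest limma adjusted p among them was 0.0524 (Clec2d between Rag2-/- and WT mice with their 8 libraries alone). Of 522 log2 fold changes recomputed for the members, 495 kept their direction. Raet1d and Raet1e did not pass the filter of at least 1 TPM in every library. Outside left-out libraries, Raet1e turned to −0.025 with quantile normalization and −0.039 with voom between Rag2-/- and WT mice, and Icam1 to 0.018 with voom between NSG and WT mice, in each case from a value near 0. With each library left out in turn, signs turned in 10 of the 24 results. For Rag2-/- against WT mice, Raet1e ranged from −0.11 to 0.22 and Pvr from −0.049 to 0.038. For Rag2-/- against NSG mice, Raet1d ranged from −0.32 to 0.0079, Raet1e from −0.14 to 0.24, Clec2d from −0.36 to 0.10, Pvr from −0.0022 to 0.11 and Cd48 from −0.18 to 0.13. Between NSG and WT mice, Raet1e ranged from −0.19 to 0.19, Nectin2 from −0.076 to 0.013 and Icam1 from −0.061 to 0.050.

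Of the list genes, 0 were called between Rag2-/- and WT mice. With at least 1 TPM in every library 2 were called (Ceacam1 and Fas), where 252 of all 12518 genes were. Without a fold limit it was 1 (Icam2), where 420 of 15026 genes were called. With 8 libraries alone it was 1 and with voom 1 (Ceacam1), where 357 of 15000 and 284 of 15001 genes were called. With a library left out, 0 to 2 were called. Both Ceacam1 and Fas were called without NSG replicate 3 (327 of 15023 genes), and Fas without Rag2-/- replicate 1 (159 of 15051 genes). The adjusted p of Fas ranged from 0.0203 to 0.154, that of Ceacam1 from 0.0199 to 0.184 and that of Icam2 from 0.00955 to 0.145. The cause was not tested.

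The labels give the hosts the same replicate numbers. Deviations of same-numbered libraries correlated at −0.091 to 0.032 over 12 pairs, and those of other libraries at −0.12 to 0.13 over 36 pairs. No shared shift of same-numbered libraries was seen, but these values cannot tell whether the samples were handled in numbered sets. With the replicate block, 0 of 8 members and 0 list genes were called, and over all genes 165, 5 and 0 instead of 221, 32 and 0 for Rag2-/- against WT, Rag2-/- against NSG and NSG against WT. Voom called 284, 59 and 1. Over all genes the count moved by more than 1.5 times between Rag2-/- and WT mice to 357 with 8 libraries alone, 114 without a filter and 420 without a fold limit. For Rag2-/- against NSG mice the 32 calls became 6, 7, 18, 11, 14 and 19 with 8 libraries alone, without a filter, without a trend, and with median ratio scaling, a pseudocount of 0.1 and quantile normalization. With a library left out, the counts ranged from 48 (WT replicate 2) to 327 (NSG replicate 3) and from 4 (Rag2-/- replicate 3) to 90 (Rag2-/- replicate 4). Depth limits Raet1d and Raet1e, at 4 to 56 reads a library.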
